A study of Sus scrofa with 21 samples.

Results

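DKK1 and FST are genes for secreted proteins that hold extracellular signals back, and both were measured in the uterine endometrium of Large White sows around conceptus attachment. They were taken as all probes of the array whose RefSeq accession belongs to pig DKK1 or FST, which gave 3 of the 43603 probes and 2 of the 2389 named genes. DKK1 had 1 probe (A_72_P440836, designed on NM_001145384), and FST had 2 probes, A_72_P640386 and A_72_P057356, both designed on NM_001003662. A_72_P640386 stands for FST below, since it had the higher mean over all arrays, and the other is called the second FST probe. All 3 probes passed the filter on dim signals described below. The genes were chosen by their high levels in pregnant sows and their low levels on certain inter-site arrays. Every DKK1 or FST value that compares pregnant with non-pregnant sows, or involves inter-sites of day 13 or day 24, is therefore an untested description. The p-values given below for those comparisons are of pathway genes.

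DKK1, dickkopf 1, is a secreted inhibitor of canonical WNT signalling that binds the WNT co-receptors LRP5 and LRP6, and it can act together with the Kremen receptors. FST, follistatin, binds activins with high affinity and also myostatin and some bone morphogenetic proteins (BMPs), and keeps them from their receptors. In human endometrium DKK1 is known to be raised in the secretory phase, under progesterone, and in mice uterine follistatin is known to be needed for full fertility.

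RNA was measured on 21 single-colour Agilent arrays, 3 in each of 7 groups. The 9 pregnant sows were inseminated and killed on day 13, 18 or 24, 3 sows on each day, and their endometrium was taken at sites where a conceptus was attached and at the inter-sites between them. The non-pregnant group held sows given inactivated sperm of the same boar and sampled on day 13, so that days 18 and 24 have no matched non-pregnant group here. The labels do not tie arrays to sows, so attachment sites and inter-sites were compared as separate groups, and p-values measure only the spread between these arrays. All levels are log2 signal relative to the 75th percentile of the array, and a difference is the first group minus the second with its standard error (SE) from a limma fit over all 21 arrays. Tests covered the probes that some group showed well above background on each of its 3 arrays, and a probe was called at an adjusted p under 0.05 (Benjamini-Hochberg over the 30091 probes tested). The tissue is bulk endometrium, in which fewer cells of a type and less RNA per cell cannot be told apart.

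Per array, 62.3% to 77.1% of the probes gave a signal well above background. Of 9 endometrial markers 4 had a named probe (PGR, ESR1, SPP1 and ACP5), and all 4 were above background on all 21 arrays. A pair of libraries labelled as inter-sites of pregnant sows stood apart, replicate 1 of day 13 and replicate 3 of day 24, called the 2 low libraries below. Their FST levels lay inside the range of the non-pregnant arrays, and their DKK1 and PGR levels lay outside that of the other 16 arrays of pregnant sows, on the side of the non-pregnant arrays. Whether their labels are right was not tested. Across probes, day 24 inter-site replicate 3 correlated at 0.942 with each other library of its group and at 0.988 with non-pregnant replicate 3. That non-pregnant library correlated at 0.946 and 0.947 with its own group, in which replicates 1 and 2 correlated at 0.989. Day 13 inter-site replicate 1 correlated at 0.934 and 0.943 with its own group and at 0.970 with day 24 inter-site replicate 3. In the authors' table of processed values the columns of day 24 inter-site replicates 2 and 3 followed each other's scanner files, so which replicate number the low day 24 library carries is not settled. The results that rest on these libraries are given with and without them.

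DKK1 was bright on nearly every array of pregnant endometrium and at or near background in non-pregnant sows. At attachment sites its levels were 5.68, 4.33 and 4.84 on day 13, 4.06, 5.26 and 4.76 on day 18, and 4.92, 5.20 and 3.54 on day 24. At inter-sites they were -3.23, 5.09 and 4.52 on day 13, 5.07, 4.23 and 5.58 on day 18, and 5.25, 4.74 and -6.13 on day 24. On the non-pregnant arrays they were -4.62, -5.37 and -4.62. All arrays of pregnant sows other than the 2 low libraries lay above all non-pregnant arrays: 16 arrays ran from 3.54 to 5.68 with a median of 4.88. In processed intensity those 16 arrays had 5786 to 32461 units, the 2 low libraries 41.2 and 6.29 units, and the non-pregnant arrays 8.88 to 21.03 units. The spot was not well above background on non-pregnant replicate 2 and on the low day 24 library, and it was well above background on the other 19 arrays. No DKK1 or FST spot was saturated or carried an outlier flag.

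**Figure D1:**
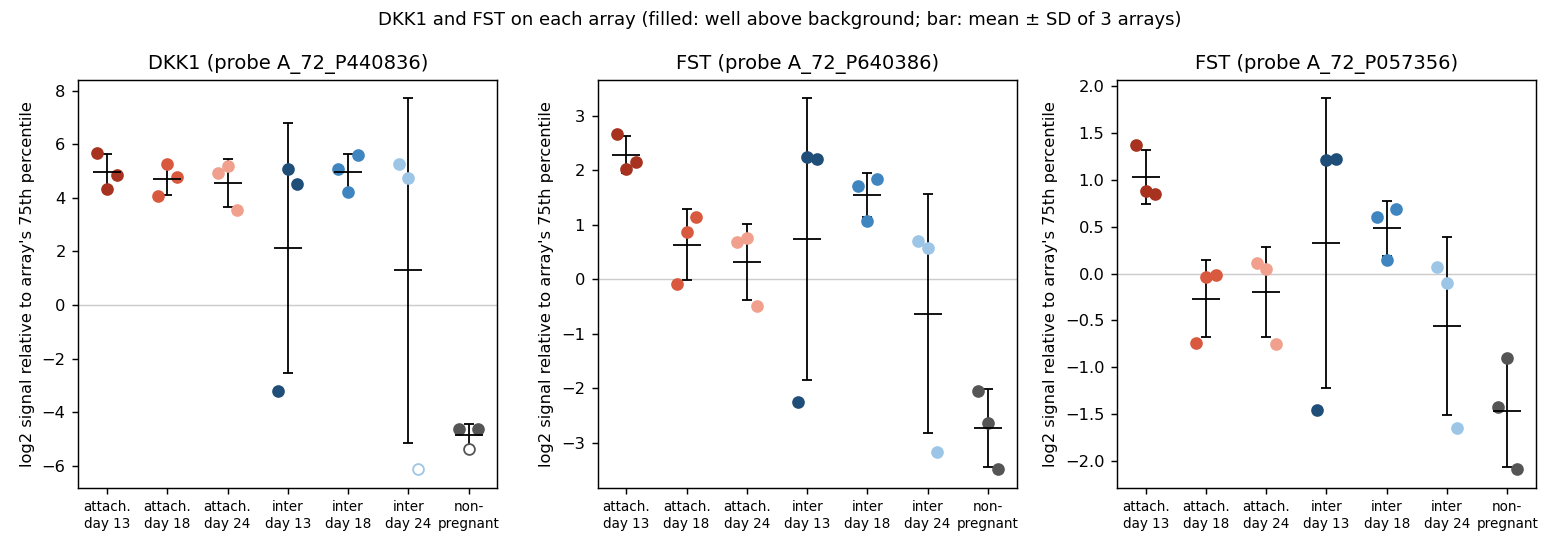
Level of DKK1 and of both FST probes on each array (log2 signal over the array's 75th percentile), by group, with attachment sites and inter-sites of days 13, 18 and 24 and non-pregnant sows. Bars are the mean ± SD of 3 arrays, filled points were well above background, and open points were not. DKK1 lay between 3.54 and 5.68 on 16 arrays of pregnant sows, while 1 array each of the day 13 and day 24 inter-sites fell among or near the non-pregnant arrays for all 3 probes.

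FST had the same division of arrays, but among the high arrays its level also varied by day. At attachment sites FST levels were 2.67, 2.03 and 2.16 on day 13, -0.09, 0.87 and 1.14 on day 18, and 0.69, 0.76 and -0.49 on day 24. At inter-sites they were -2.25, 2.25 and 2.21 on day 13, 1.72, 1.08 and 1.84 on day 18, and 0.70, 0.57 and -3.16 on day 24. Non-pregnant arrays had -2.05, -2.63 and -3.48. The 16 pregnant arrays outside the 2 low libraries ran from -0.49 to 2.67, all above the non-pregnant arrays, and both low libraries lay inside the non-pregnant range. FST was well above background on all 21 arrays, with 354.5 to 3705 intensity units on the 16 arrays, 81.2 and 49.2 on the 2 low libraries and 46.5 to 92.5 in non-pregnant sows.

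The second FST probe gave the same division with a narrower range. Its levels at attachment sites were 1.37, 0.88 and 0.85 on day 13, -0.74, -0.04 and -0.02 on day 18, and 0.11, 0.05 and -0.75 on day 24. At inter-sites it had -1.46, 1.21 and 1.23 on day 13, 0.61, 0.15 and 0.69 on day 18, and 0.07, -0.10 and -1.65 on day 24, and in non-pregnant sows -1.43, -0.90 and -2.09. The 16 high arrays ran from -0.75 to 1.37, and again no non-pregnant array reached them, although the gap between -0.75 and -0.90 was small. Over the 21 arrays both FST probes correlated at 0.97 (Pearson), and over the 16 high arrays at 0.98. These probes are designed on 1 transcript and are not independent of each other.

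The order of the group means followed these levels. For DKK1 it ran from day 18 inter-sites (4.96 ± 0.68, SD, n = 3), day 13 attachment sites (4.95 ± 0.68), day 18 attachment sites (4.69 ± 0.60) and day 24 attachment sites (4.55 ± 0.89) to the day 13 and day 24 inter-sites (2.13 ± 4.65 and 1.29 ± 6.42) and non-pregnant sows (-4.87 ± 0.43). All neighbours in that order overlapped, and the wide spreads were those of the groups that hold a low library. For FST the order ran from day 13 attachment sites (2.29 ± 0.33), which did not overlap with the next group, day 18 inter-sites (1.55 ± 0.41), over day 13 inter-sites (0.74 ± 2.59), day 18 and day 24 attachment sites (0.64 ± 0.65 and 0.32 ± 0.70) and day 24 inter-sites (-0.63 ± 2.19) to non-pregnant sows (-2.72 ± 0.72). All other neighbours overlapped. The second FST probe kept the top and the bottom of that order but had day 24 attachment sites (-0.20 ± 0.48) before day 18 attachment sites (-0.27 ± 0.41).

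Set against non-pregnant sows, day 13 attachment sites had higher DKK1 by 9.82 log2 units (SE 2.28), which is 904-fold as fitted. The non-pregnant level was above background on 2 of the 3 arrays and close to it, so the size of this fold is not well measured. FST was higher by 5.01 (SE 1.03, 32.2-fold) and its second probe by 2.51 (SE 0.59, 5.69-fold). Under normexp background correction the differences were 6.90 for DKK1, 3.59 for FST and 1.82 for the second FST probe. At day 13 inter-sites the differences from non-pregnant sows were 7.0 for DKK1, 3.46 for FST and 1.80 for the second FST probe with all arrays, and 9.68, 4.95 and 2.69 without the 2 low libraries. Limma called 1.78% of the probes tested for the attachment sites and 0.452% for the inter-sites (6.55% and 3.86% without the 2 low libraries), and nothing is read from the place of DKK1 and FST among them, since this contrast chose the genes. The count at attachment sites was 536 probes, 0 without non-pregnant replicate 1 and 1 without replicate 2, and up to 1303 with another library left out. Both comparisons share the non-pregnant arrays. Within slides, the DKK1 difference at attachment sites was 11.05 on slide 1 and 9.46 on slide 3, and the FST difference 5.30 and 5.64. At inter-sites it was 9.71 for DKK1 and 5.73 for FST on slide 3, and 1.39 and -0.20 on slide 6, which holds the low day 13 library.

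The ranges of smooth muscle and epithelial marker sums overlapped between these groups. Each overlap came from the lowest smooth muscle sum or the highest epithelial sum of the non-pregnant arrays. The summed linear level of 4 smooth muscle genes (ACTA2, DES, CNN1 and MYLK, of 9 listed, all above background on 21 arrays) was 37.4, 52.1 and 638 at day 13 attachment sites. It was 35.7, 1228 and 1333 in non-pregnant sows, where replicate 3 had the 35.7. The sum of 7 epithelial markers (of 10 listed) was 192, 224 and 230 at day 13 attachment sites and 101, 114 and 206 in non-pregnant sows. It was 105 and 192 on the 2 low libraries, inside the range of the arrays of the other groups. The sum of the 4 endometrial markers was 75.6 and 132 on the low libraries, at least 474 on the other 16 arrays of pregnant sows, and 89.2 to 686 in non-pregnant sows. A linear sum is carried by its brightest genes, here ACP5 and SPP1 (log2 levels up to 9.48 and 8.33), with PGR at most 3.44. PGR went the other way, with 2.16 and 3.04 on the low libraries and 0.77 to 1.39 on the 16 arrays. The part of these markers in the DKK1 and FST levels was not tested.

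**Figure D2:**
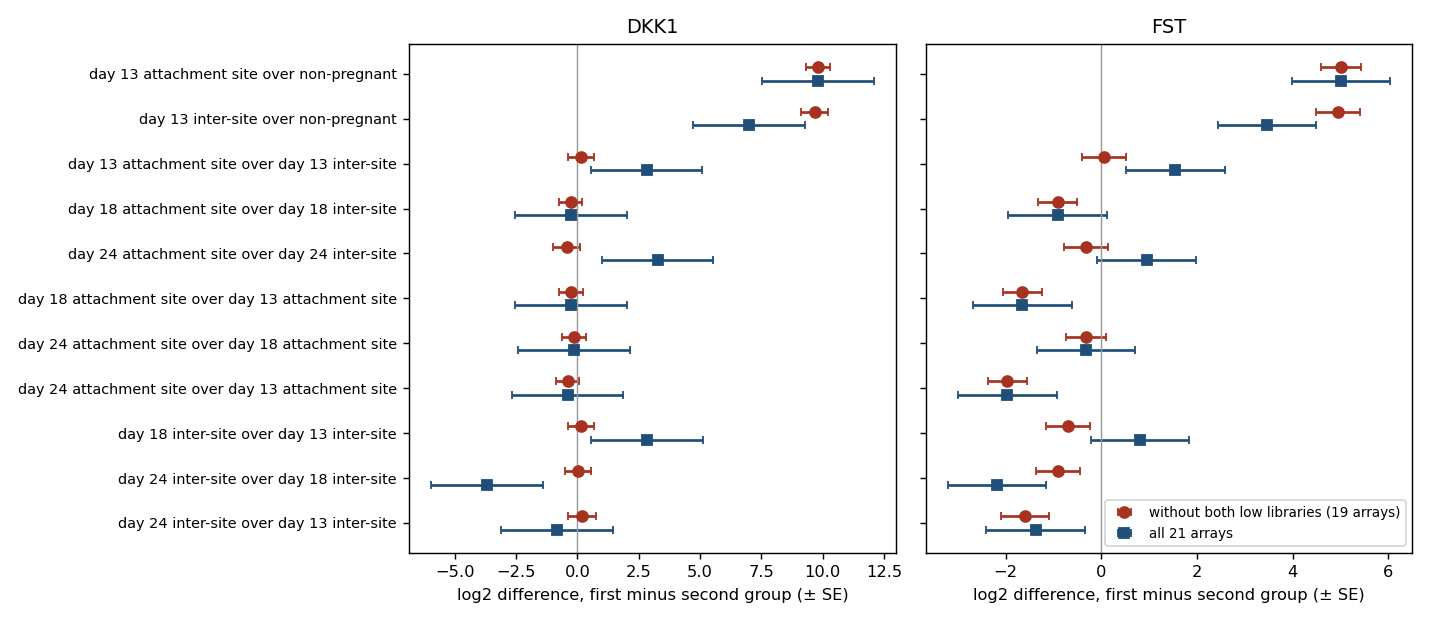
Log2 differences of DKK1 and FST for each of the 11 comparisons, first group minus second (points, ± SE from limma), without the 2 low libraries (circles, 19 arrays) and with all 21 arrays (squares). The SE of DKK1 was 2.28 with all arrays and 0.48 to 0.59 without the low libraries, and differences that involve inter-sites of day 13 or 24 moved with them.

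The comparison of sites within a day asks whether the levels are higher where a conceptus lies. On day 18, the day without a low library, they were not called different. DKK1 was at 4.06, 5.26 and 4.76 at attachment sites and at 5.07, 4.23 and 5.58 at inter-sites, with a difference of -0.27 (SE 2.28, 95% interval -5.09 to 4.56, adjusted p = 0.997 by limma). FST was lower at attachment sites by 0.91 log2 units on average (SE 1.03, interval -3.09 to 1.28, adjusted p = 0.982 by limma), and the groups overlapped between 1.08 and 1.14. The second FST probe had -0.75 (SE 0.59, interval -2.0 to 0.50, adjusted p = 0.982 by limma), and its groups did not overlap. Limma called 0% of all probes in this comparison, with 1411 at an unadjusted p under 0.05 and a lowest adjusted p of 0.0683, and quantile normalization called 1 probe. Without the 2 low libraries the adjusted p was 0.962 for DKK1 and 0.905 for each FST probe.

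No slide held both day 18 groups. With slide as a block the day 18 difference was 2.07 for DKK1 and 0.03 for FST. Slide 2, with day 18 attachment-site arrays, and slide 6, with a day 18 inter-site array, each hold a low library, which enters the estimate for its slide. The summed epithelial markers were 71.6, 87.3 and 141 at day 18 attachment sites and 96.9, 144 and 152 at inter-sites, and their part in the FST values was not tested.

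On days 13 and 24 the site difference depended on the low libraries. With all arrays, attachment sites exceeded inter-sites in DKK1 by 2.82 on day 13 and 3.27 on day 24, and in FST by 1.55 and 0.95, where limma called 0% of all probes on day 13 and 0.279% on day 24. Without the low libraries the same differences were 0.14 and -0.44 for DKK1 and 0.05 and -0.31 for FST. On slide 3, which holds 1 library of each day 13 site type, the differences were -0.25 and -0.09, and on slide 4, with 1 library of each day 24 site type, 0.46 and 0.19. On slide 2, which holds the low day 24 library, they were 9.67 and 2.67.

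Time at attachment sites was compared next, where no array stood apart in DKK1 or FST. No change of DKK1 was called: the difference was -0.26 for day 18 over day 13 (95% interval -5.08 to 4.57, adjusted p = 0.963 by limma), -0.14 for day 24 over day 18 (-4.96 to 4.68, adjusted p = 0.980) and -0.40 for day 24 over day 13 (-5.22 to 4.43, adjusted p = 0.932). Its groups overlapped in all 3 comparisons. These intervals are wide, as the SE of 2.28 pools the spread of the groups with a low library. Without those libraries the SE was 0.48 and the adjusted p 0.625 to 0.886. With slide as a block the differences of day 18 and of day 24 from day 13 were 2.30 and 0.99. Slide 2 holds attachment-site arrays of both later days and also the low day 24 library, which enters the estimate for that slide. On slide 3, without a low library, DKK1 differed by -0.78 for day 18 over day 13. On slides 1 and 4, also without a low library, it differed by -0.76 and 0.87 for day 24 over day 13.

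FST had lower levels on both later days than on day 13. On day 18 attachment sites had -0.09, 0.87 and 1.14, and on day 13 they had 2.67, 2.03 and 2.16, without overlap. The difference was -1.65 (SE 1.03, 3.13-fold lower, adjusted p = 0.372 by limma), and it was not called. The second FST probe differed by -1.30 (SE 0.59, adjusted p = 0.218), also without overlap. Limma called 1.80% of all probes in this comparison (541 probes, but 9 without day 18 attachment-site replicate 1 and 3728 without replicate 3).

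On day 24 FST stood at 0.69, 0.76 and -0.49 and was lower than on day 13 by 1.96 log2 units on average (SE 1.03, 3.90-fold lower, adjusted p = 0.214 by limma), again without overlap and without a call. The second FST probe differed by -1.23 (SE 0.59, 2.35-fold lower, adjusted p = 0.172). Limma called 15.7% of all probes here, so a difference from day 13 to day 24 was common. Between day 24 and day 18 no difference was called (FST -0.32, adjusted p = 0.886, and the second FST probe 0.07, adjusted p = 0.961, by limma, with 5.62% of all probes called).

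Without the 2 low libraries FST passed the threshold in both comparisons with day 13. Day 18 over day 13 then had an SE of 0.41 and an adjusted p of 0.0451, and day 24 over day 13 an adjusted p of 0.00573 (limma). The second FST probe had adjusted p values of 0.0407 and 0.0159, and the shares of all probes called were 3.17% and 17.5%. The libraries left out hold no attachment site, so the differences stayed at -1.65 and -1.96 and only the pooled SE shrank. They stand apart in FST itself, so the smaller SE is not independent evidence. With any 1 library left out the adjusted p of FST stayed between 0.213 and 0.615 for day 18 and between 0.0858 and 0.457 for day 24. Within slides FST differed by -2.26 for day 18 over day 13 on slide 3, and by -1.97 and -1.27 for day 24 over day 13 on slides 1 and 4.

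The summed level of 11 conceptus and trophoblast markers (of 17 listed) was 12.4 to 14.8 on day 13, 14.1 to 25.2 on day 18 and 22.2 to 50.9 on day 24 at attachment sites. In non-pregnant sows, which had no conceptus, it was 14.7 to 15.2, so the day 13 sums did not rise above that baseline. Among the 11 markers AFP was above background on 11 arrays and CYP19A3 on 3, while GATA2 and CYP19A1 were above it on all 21. Epithelial sums at attachment sites were 192 to 230 on day 13, 71.6 to 141 on day 18 and 162 to 190 on day 24. The part of either list in the FST values was not tested. At inter-sites without the low libraries FST differed by -0.69 for day 18 over day 13, by -0.91 for day 24 over day 18 and by -1.60 for day 24 over day 13, against 0.81, -2.18 and -1.37 with all arrays, where limma called 0.00665%, 0.143% and 0.246% of all probes. DKK1 at inter-sites differed by 0.15, 0.03 and 0.19 without the low libraries, against 2.83, -3.67 and -0.84 with them.

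**Figure D3:**
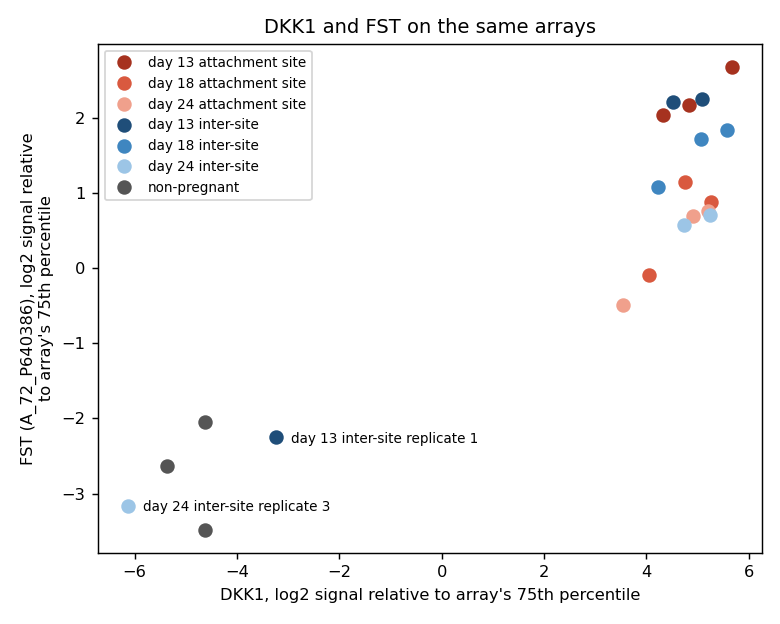
FST against DKK1 on the same 21 arrays (both as log2 signal over the array's 75th percentile), coloured by group. The 16 high arrays lie at DKK1 levels of 3.54 to 5.68, and the 2 low libraries lie with the 3 non-pregnant arrays.

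DKK1 and FST followed each other over the arrays. Their Pearson correlation was 0.92 over 21 arrays (Spearman 0.73), and 0.83 with the second FST probe. The arrays fall into 2 clusters, the 16 high ones and the 5 others, and within the 16 the correlation was 0.54 (0.52 with the second FST probe). FST was the gene most like DKK1, and DKK1 the gene most like FST, among 1086 named genes above background in at least 1 group and with an SD of at least 0.5. Both genes were chosen for this division of the arrays, so nothing is read from their rank for each other. All values of likeness are descriptions over arrays that share the 2 low libraries and the non-pregnant group.

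After FST, the genes most like DKK1 were ARNTL, a transcription factor of the circadian clock (0.88), CTH, an enzyme that makes cysteine (0.86), PTN, the heparin-binding growth factor pleiotrophin (0.85), and RBP4, the carrier of retinol (0.85). Within the 16 high arrays their correlations with DKK1 were only -0.02, 0.03, 0.31 and -0.33, so the likeness lies in the division of the arrays. RBP4, for example, was at 8.09 to 8.96 on the 16 arrays, at 1.98 and 5.33 on the low libraries and at 4.4 to 6.41 in non-pregnant sows.

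The genes least like DKK1 were PGR, the progesterone receptor (-0.94), PRKAG3, a subunit of AMP-activated protein kinase (-0.90), and SCG5, a secretory granule protein (-0.87). PGR had levels of 0.77 to 1.39 on the 16 arrays where DKK1 was high. It was at 2.16 on the low day 13 library, at 3.04 on the low day 24 library and at 3.44, 3.01 and 3.38 in non-pregnant sows. Thus PGR was high on the 5 arrays on which DKK1 was low, and its correlation with DKK1 within the 16 arrays was 0.20.

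FST was followed, after DKK1, by LIMK2, a kinase acting on actin turnover (0.87), AGPAT3, an acyltransferase of phospholipid synthesis (0.87), KLF15, a Krüppel-like transcription factor (0.86), and NAMPT, an enzyme of NAD salvage (0.85). Within the 16 high arrays their correlations with FST were 0.62, 0.55, 0.76 and 0.53. The genes were picked over 21 arrays that include these 16, and FST varied by day among them. These values are therefore not separate evidence of a relation. The genes least like FST were AMCF-II, a porcine neutrophil-attracting chemokine (-0.94), CXCL8, the chemokine interleukin 8 (-0.90), and APEX1, an endonuclease of DNA base excision repair (-0.90). AMCF-II was above background on 12 arrays and CXCL8 on 15, so their values rest in part on unmeasured levels. APEX1 was above it on all 21 and had -0.63 within the 16 arrays.

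AMCF-II was not well above background on 9 arrays, which had FST levels of 0.69 to 2.67, and was above it on the 12 others, which had FST levels of -3.48 to 1.14. At attachment sites its levels were -7.41, -8.32 and -5.70 on day 13, -3.80, -4.97 and -4.91 on day 18, and -5.59, -4.27 and -3.09 on day 24. At inter-sites they were -2.62, -7.80 and -7.97 on day 13, -6.61, -6.70 and -6.69 on day 18, and -5.28, -4.44 and 0.11 on day 24, and in non-pregnant sows -2.70, -2.12 and -0.88. Its levels on the 9 arrays have no measured order. These arrays were all day 13 attachment sites, all day 18 inter-sites, day 13 inter-site replicates 2 and 3 and day 24 attachment-site replicate 1.

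**Figure D4:**
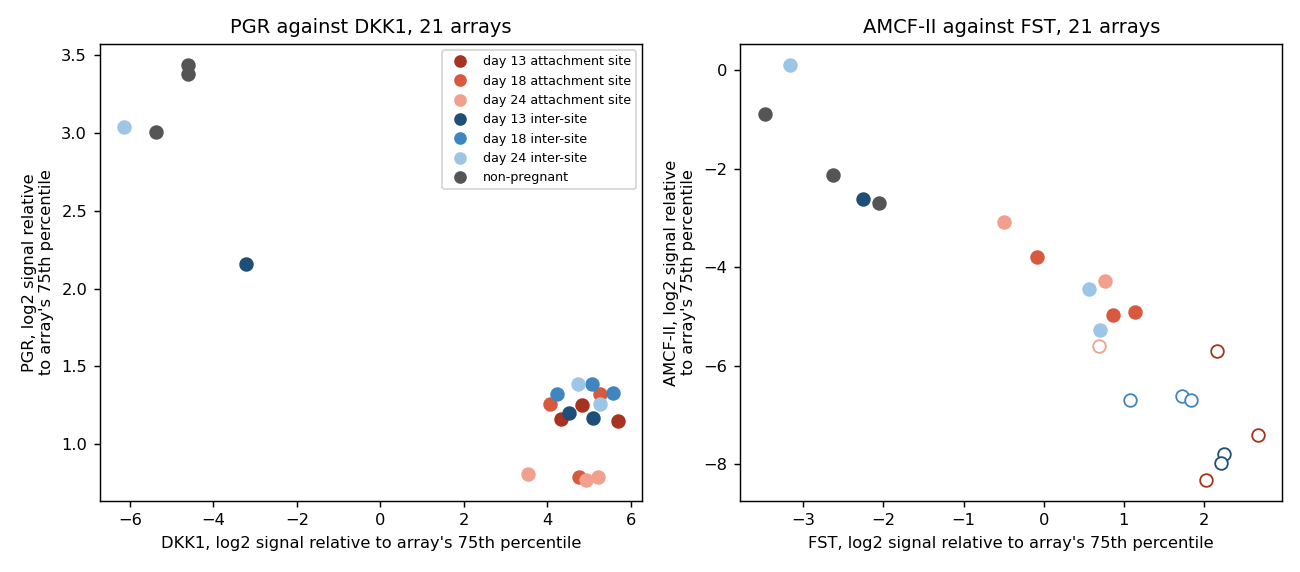
PGR against DKK1 and AMCF-II against FST on 21 arrays (log2 signal over the array's 75th percentile). Open points of AMCF-II were not well above background. PGR divides into 16 arrays at 0.77 to 1.39 and 5 arrays at 2.16 to 3.44, while the 9 open points of AMCF-II lie at FST levels of 0.69 to 2.67.

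The signals that these antagonists bind were measured in part. Of the DKK1 partners LRP5, LRP6, KREMEN1, KREMEN2 and CKAP4, and of the FST partners and relatives INHBB, GDF11, ACVR2A and FSTL3, none had a named probe here. INHBA, the subunit of activin A, had group means from 2.64 to 2.93, with 2.94, 2.97 and 2.88 at day 13 attachment sites and 2.60, 2.82 and 2.90 in non-pregnant sows (difference 0.16, SE 0.17, adjusted p = 0.650 by limma). INHA, the inhibin alpha subunit, had group means of -3.16 to -2.51. MSTN (myostatin) and BMP6 were not above background on all arrays of any group.

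BMP4 was at -0.64 ± 0.12 at day 13 attachment sites and at -1.53 ± 0.11 in non-pregnant sows (SD, n = 3 each), a difference of 0.89 that was not called (adjusted p = 0.143 by limma). BMP7 had group means of -2.91 to -1.34, and the activin receptor ACVR2B of -4.52 to -3.92. Of the 6 partners tested, INHA, INHBA, BMP2, BMP4, BMP7 and ACVR2B, 1 was called for day 24 over day 13 at attachment sites, where 15.7% of all probes were called. It was BMP2, a ligand that follistatin can bind. Its levels at attachment sites were -2.74, -2.88 and -2.22 on day 13, -1.29, -2.55 and -2.71 on day 18, and -1.14, -0.17 and 0.24 on day 24. Day 24 was higher than day 13 by 2.26 (SE 0.59, adjusted p = 0.0168 by limma).

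Of 78 WNT pathway genes 8 had a named probe, all tested: the ligand WNT2B, the secreted DKK3 and SFRP4, the pathway components GSK3B, CTNNB1 (beta-catenin) and LEF1, and the target genes MYC and MSX1. At day 13 attachment sites 1 of the 8 was called against non-pregnant sows, against 1.78% of all probes, and their median difference was -0.36, against -0.06 over all probes tested. This was MYC, a transcription factor that drives growth, with levels of 0.38, -0.16 and -0.21 at attachment sites and 2.21, 2.0 and 2.65 in non-pregnant sows (difference -2.28, SE 0.54, adjusted p = 0.0430 by limma). On the 2 low libraries MYC was at 2.26 and 2.54, inside the non-pregnant range. DKK3 had -1.26 (adjusted p = 0.15), and CTNNB1 0.09 (adjusted p = 0.822).

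At day 24 attachment sites over day 13, 1 of the 8 was called (12.5%), against 15.7% of all probes, and their median was -0.04, against 0.01 over all probes. MSX1, a homeobox factor needed for implantation in mice together with MSX2, was at 4.32, 4.29 and 4.13 on day 24 and at 5.45, 5.79 and 6.07 on day 13 (difference -1.53, SE 0.48, adjusted p = 0.0418 by limma). In the other 9 comparisons, with 0% to 5.62% of all probes called, 0 of the 8 were called. Without the 2 low libraries 2 calls were made there. MYC was lower at day 13 inter-sites than in non-pregnant sows (-2.31, adjusted p = 0.00761 by limma, with 3.86% of all probes called). The library left out of that group resembled non-pregnant arrays and had MYC at 2.26, against 0.06 and -0.12 on those kept. That call is therefore not independent evidence. SFRP4, a secreted WNT-binding protein, was lower on day 24 than on day 18 at attachment sites (-1.67, adjusted p = 0.0458 by limma, with 6.99% of all probes called). For day 24 over day 13, 2 genes were called without the low libraries, against 17.5% of all probes, MSX1 and also MYC, which was higher on day 24 (1.30, adjusted p = 0.0235 by limma). The call of MYC at attachment sites on day 13 was lost under normexp background correction, median scaling, quantile normalization, the authors' table, no filter and slide as a block. It was also lost with any of at least 11 single libraries left out, for which no WNT gene was called. The call of MSX1 was lost under normexp and without the filter, and with any of at least 8 single libraries left out, for which no WNT gene was called.

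**Figure D5:**
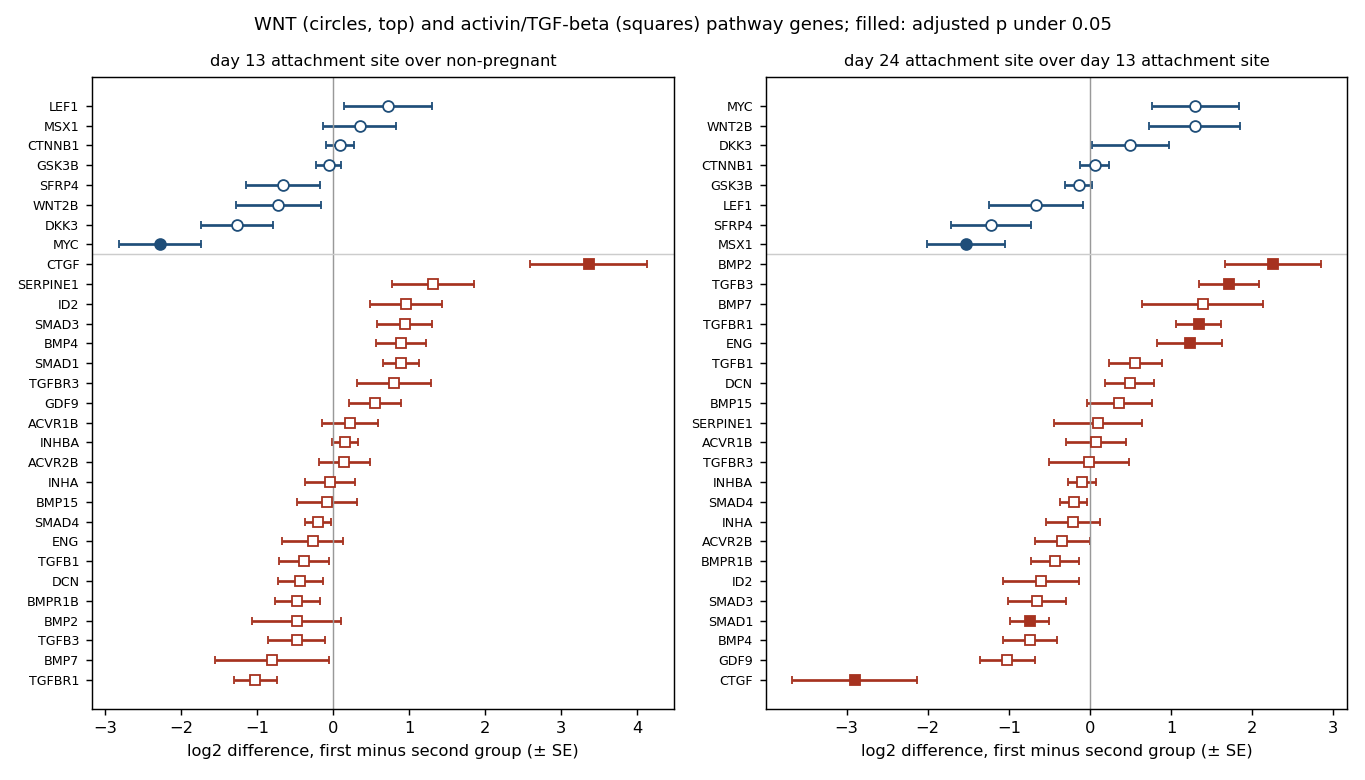
Log2 differences (± SE, limma, all 21 arrays) of the measured WNT pathway genes (circles) and activin/TGF-beta pathway genes (squares), for day 13 attachment sites over non-pregnant sows and for day 24 over day 13 attachment sites. Filled symbols passed an adjusted p of 0.05: MYC and CTGF in the first comparison, and MSX1, BMP2, TGFB3, TGFBR1, ENG, SMAD1 and CTGF in the other.

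Of 62 activin, BMP and TGF-beta pathway genes 25 had a named probe, and 22 were tested. At day 13 attachment sites 1 of the 22 was called higher than in non-pregnant sows and 0 lower (4.55% called, against 1.78% of all probes), and the median of the 22 was 0.06, against -0.06 over all probes. It was CTGF, a matricellular protein induced by TGF-beta, with levels of 5.32, 5.05 and 5.70 at attachment sites and 1.73, 1.91 and 2.34 in non-pregnant sows (difference 3.36, SE 0.77, adjusted p = 0.0386 by limma). CTGF was at 1.71 and 2.19 on the 2 low libraries. The call of CTGF was lost under normexp, without the filter and with slide as a block. It was also lost with any of at least 9 single libraries left out, for which none of the 22 was called. Without the 2 low libraries 3 genes were called, against 6.55% of all probes, with SMAD1, a transducer of BMP signals (0.89, adjusted p = 0.0202), and the type I receptor TGFBR1 (-1.02, adjusted p = 0.0354) beside CTGF.

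Day 24 over day 13 at attachment sites called 6 of the 22, 4 higher and 2 lower, which is 27.3% against 15.7% of all probes, with a median of -0.05, against 0.01 over all probes. Under normexp 1 of the 22 was called, and 3.24% of all probes. Higher on day 24 were BMP2, the ligand TGFB3 (1.71, SE 0.37, adjusted p = 0.00658), TGFBR1 (1.34, SE 0.28, adjusted p = 0.00550) and the co-receptor ENG (1.23, SE 0.40, adjusted p = 0.0457), all by limma. TGFB3 was at 2.40, 2.30 and 1.26 on day 24 and at 0.28, 0.12 and 0.43 on day 13. Lower on day 24 were CTGF (-2.90, SE 0.77, adjusted p = 0.0178), with 2.57, 2.77 and 2.01 on day 24, and SMAD1 (-0.74, SE 0.24, adjusted p = 0.0415). The number called ran from 2 to 7 with 1 library left out, and the lowest count was without day 24 attachment-site replicate 3. The count over all 30091 probes then ran from 2094 to 5228, against 4712 with all arrays, and was also lowest without that library. The conceptus marker sums given above were higher on the later days, and their part in these calls was not tested.

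In the other 9 comparisons 0 of the 22 were called with all arrays, where 0% to 5.62% of all probes were called. Without the 2 low libraries 2 were. CTGF was higher at day 13 inter-sites than in non-pregnant sows (3.13, adjusted p = 0.00906 by limma, with 3.86% of all probes called). The library left out of that group resembled non-pregnant arrays and had CTGF at 1.71, against 4.82 and 5.43 on those kept. That call too is not independent evidence. SMAD1 was lower on day 18 than on day 13 at attachment sites (-0.92, adjusted p = 0.0324 by limma, with 3.17% of all probes called). Without day 18 attachment-site replicate 3 the count was 5 over these 9 comparisons, and the share of all probes called for day 18 over day 13 at attachment sites was then 12.4%.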

How the data were processed

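The deposited values are spot intensity, read out by Agilent Feature Extraction (10.7.3.1 in the headers and 10.7 in the submitters' processing notes) and, per the file headers, corrected for background and spatial trend inside each array. The authors' table of processed values is deposited on the log2 scale, with a median of 5.85 in each column and its software not given in the sources used here. It served as an alternative.

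Controls and outlier-flagged spots were dropped and repeated spots averaged, which left 43603 probes. Log2 signals were scaled by the 75th percentile of their array, and limma 3.58.1 (R 4.3.3, lmFit and eBayes) fitted a mean for each of the 7 groups with 14 residual degrees of freedom and Benjamini-Hochberg adjustment within each of 11 comparisons. Probes were named by RefSeq accession without version (5461 of 5779 matched), and the probe with the highest mean stood for a gene. The number of arrays limits the precision. In simulated data for day 24 over day 13 attachment sites the same fit on 30091 probes recovered 26, 64, 92 and 100% of probes changed by 1, 2, 4 and 8 log2 units. Only 50 probes were changed at each size, while 15.7% of the probes were called in the measured data. The Benjamini-Hochberg cut-off therefore differs between them, and the simulated shares do not carry over to the measured comparison.

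The genes, the pathway and marker lists and the tests were chosen with earlier results of these data known. Named were the direct partners of DKK1 and FST, up to 6 called members of a pathway list per comparison, and the 5 most and 3 least correlated genes. Deviations of same-numbered arrays correlated above 0.1 in 12 of 33 pairs (range -0.38 to 0.49). Most of these pairs cross days or set pregnant against non-pregnant sows, and cannot share a sow. Pairs of attachment site and inter-site had -0.11, -0.01 and 0.23 on day 13. They had 0.23, 0.10 and 0.49 on day 18, and 0.19, 0.08 and 0.08 on day 24. This does not settle whether same-numbered arrays share a sow, and no pairing was used, since the labels do not give it. Alternatives were normexp (offset 50) on median spot and background intensity, median scaling, quantile normalization, the authors' table, no filter, slide or replicate number as a block, and arrays left out. Sequences and genome positions of the probes were not used here.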

Additional observations from a re-analysis of the deposited data

How the results depend on the processing

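Of 312 values recomputed under 8 alternatives for 39 results, 282 held. Tested differences held when they kept their direction and side of the threshold, and counts when they stayed within 1.5 times. Untested differences held when they moved by no more than the spread between replicates. The low libraries widen that spread, so differences that use them could move far and still count as held. An example is DKK1 at day 24 attachment sites over inter-sites, with 3.27 on all arrays and -0.44 without both low libraries. Normexp background correction gave day 13 attachment-site differences from non-pregnant sows of 6.90 for DKK1, 3.59 for FST and 1.82 for the second FST probe. With slide as a block, DKK1 turned to 2.07 for the day 18 sites, 2.30 for day 18 over day 13 and 0.99 for day 24 over day 13 at attachment sites, FST to 0.03 for the day 18 sites, and the second FST probe to -0.29 for day 24 over day 18. The low libraries enter the slide estimates used there. Without both low libraries FST (-1.65 and -1.96) and its second probe (-1.30 and -1.23) passed the threshold on days 18 and 24 over day 13. Replicate numbers were not shown to pair sows; with the replicate block no call on DKK1 or FST changed, and 1 WNT and 1 activin/TGF-beta gene were called in the 9 comparisons that otherwise had 0. Without both low libraries these counts were 2 and 2. Over those 9 comparisons the shares of all probes called were 0% to 5.93% with the replicate block and 0% to 6.99% without the low libraries.

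For day 13 attachment sites over non-pregnant sows, 0 WNT genes were called under normexp, median scaling, quantile normalization, the authors' table, no filter and the slide block, and 0 activin/TGF-beta genes under normexp, no filter and the slide block, but 3 without both low libraries. Here normexp called 0.0864%, no filter 0.417% and the slide block 0% of all probes, so a 0 there says nothing about these genes. Normexp also moved the median of all probes to -0.26 here and to 0.28 for day 24 over day 13 at attachment sites. For day 24 over day 13, WNT counts were 0 under normexp and no filter and 2 without both low libraries, and the activin/TGF-beta count was 1 under normexp, which called 3.24% of all probes.

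With 1 library left out, also from groups outside the comparison (an alternative chosen after seeing the data), DKK1 ran from -0.63 to 0.05 for the day 18 sites, from -0.56 to 0.11 for day 18 over 13, from -0.46 to 0.36 for day 24 over 18 and from -0.72 to 0.11 for day 24 over 13. For day 24 over 18, FST ran from -0.68 to 0.09 and its second probe from -0.16 to 0.34. WNT counts were 0 to 1 against non-pregnant sows, 0 to 2 for day 24 over 13 and 0 to 2 in the others. Activin/TGF-beta counts were 0 to 3, 2 to 7 and 0 to 5. Counts over all probes ran from 0 to 1303 against non-pregnant sows and from 2094 to 5228 for day 24 over 13. In the others they reached 3728, for day 18 over 13 at attachment sites. Signal near background limits DKK1 in non-pregnant sows.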
